A study of Homo sapiens with 6 samples.

Results

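Acetyl groups on the lysines of histone tails are placed by acetyltransferases (writers), removed by deacetylases (erasers) and bound by bromodomain proteins (readers). The transcripts of 40 such genes were followed in SH-SY5Y cells, namely 14 writers, 18 erasers and 8 readers, which are all rows of the deposited table whose gene name is one of the listed symbols, out of 58395 rows in all. Acetylation loosens the contact between histones and DNA and marks active promoters and enhancers, and in neurons the balance of writers and erasers is known to bear on activity-dependent genes and memory. Each writer works mostly inside a large complex, each eraser of the HDAC family uses zinc while the sirtuins use NAD, and the readers bring remodellers or transcription factors to acetylated chromatin.

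RNA-seq was carried out in 6 libraries of SH-SY5Y, a human neuroblastoma line. The 3 libraries labelled Tau came from cells transfected with a plasmid that carries the 0N4R isoform of Tau, and the 3 control libraries came from cells with the control vector. All cells were differentiated with retinoic acid and then with BDNF. Both groups are the same cell line, and no source says that replicates came from separate cultures, so each p measures only the spread between these libraries.

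The libraries held 27945481 to 31706415 counted reads and had counts in 23632 to 24099 genes. MAPT, which encodes Tau, checks the labels. It stood at 34.6, 32.6 and 34.6 CPM (counts scaled to a common library total, after TMM) in the libraries labelled Tau, against 34.8, 51.9 and 41.6 CPM in control libraries (log2 fold change -0.33, SE 0.18, adjusted p = 0.239, edgeR), so it was not higher on the Tau side. Every library labelled Tau lay below every control library, though the closest were nearly equal. With the trend of levels with GC content removed, MAPT was called lower on the Tau side (-0.55, adjusted p = 0.0987, edgeR). Whether reads of the plasmid were counted for MAPT was not tested, and all directions here are those of the library labels. Of 12 markers of neuroblastoma identity, 10 had enough reads to be tested. Their summed level was 3240, 3140 and 3510 CPM in libraries labelled Tau, against 3630, 4670 and 4090 CPM in control libraries, and DBH was among those called lower (log2 fold change -1.07, adjusted p = 0.0344, edgeR). Of 12 mesenchymal or Schwann-like markers 7 were tested, with a summed level of 560 to 584 CPM in libraries labelled Tau, against 633 to 640 CPM in control libraries, and COL1A1 (2.04, adjusted p = 0.0103, edgeR) and SOX9 (1.19, adjusted p = 0.0199) were called higher. Of the 10 neuroblastoma markers tested, 8 had a log2 fold change below 0 and 2 above. PHOX2A was among the 2 above and was not called (0.51, adjusted p = 0.164, edgeR). Of the 7 mesenchymal markers tested, 5 were above 0 and 2 below. The 2 below were VIM (-0.15, mean 442 against 490 CPM) and TWIST1 (-0.39, 101 against 132 CPM), neither called. COL1A1 was low, at means of 5.21 against 1.29 CPM. The part of these markers in the results below was not tested. None of the 12 glial, endothelial and blood markers had enough reads to be tested (summed level of 0.168 to 0.257 CPM in libraries labelled Tau, against 0.155 to 0.307 CPM in control libraries). Of the counts, genes of the mitochondrial genome held 45.8, 57.8 and 53.8% in libraries labelled Tau, against 45.6, 30.5 and 45.6% in control libraries (52.5 ± 6.11 against 40.6 ± 8.74%, SD, n = 3 each). The exact two-sided permutation test gave p = 0.1, the smallest that 3 against 3 libraries allow.

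All 40 genes passed the filter on low counts. A gene is called here at a false discovery rate under 0.1 over all 16778 tested genes and an absolute log2 fold change over 0.5, in edgeR's quasi-likelihood test. By this rule 2 of the 40 were higher in libraries labelled Tau, the writer KAT2A and the eraser HDAC5, and 3 were lower, the writer NCOA2, the eraser SIRT1 and the reader BRPF3. That is 12.5% of the 40 genes, where 17.8% of all tested genes were called, 9.37% higher and 8.42% lower. The share among the 40 is thus no larger than that of all genes. In bulk RNA, fewer cells of a type and less RNA per cell cannot be told apart.

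**Figure D1:**
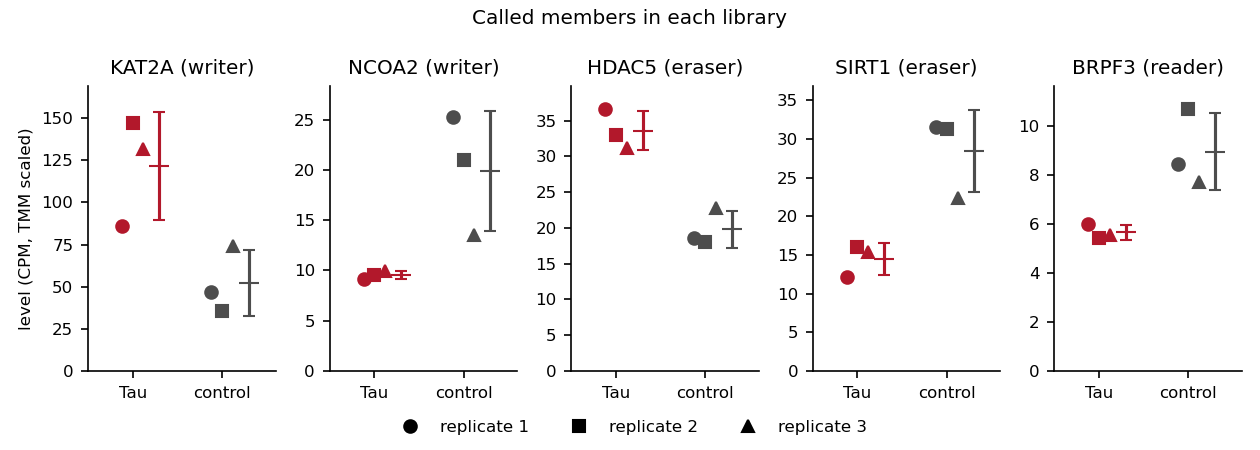
Level of the 5 called genes in each library (y axis, CPM after TMM scaling, from 0), with Tau left of control. Points are single libraries, bars show the mean ± SD (n = 3), and in all 5 panels control replicate 3, the triangle, is the control library nearest to the libraries labelled Tau.

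KAT2A (GCN5), the catalytic subunit of the SAGA and ATAC coactivator complexes, which acetylates histone H3, showed the largest fold change of the 40 genes. Its level was 85.8, 147 and 132 CPM in libraries labelled Tau, against 47.0, 35.5 and 74.0 CPM in control libraries. The groups did not overlap, although Tau replicate 1 and control replicate 3 lay close to each other. The means were 121 ± 31.8 and 52.2 ± 19.7 CPM (SD, n = 3 each), a log2 fold change of 1.22 (SE 0.27, 95% confidence interval 0.62 to 1.82, adjusted p = 0.0229, edgeR), which is 2.33-fold. KAT2A spans 42113111 to 42121367 of chromosome 17 (GRCh38, minus strand), and 59.94% of its longest transcript is G or C. An annotated protein-coding gene on the same strand overlaps it and had 0 counts. With the mitochondrial share as a covariate, a fit in which 7.88% of all tested genes were called, its log2 fold change was 0.56 and the call was lost (adjusted p = 0.171, edgeR).

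NCOA2, a coactivator that nuclear receptors recruit and that in turn brings in EP300 and CREBBP, was lower. It had 9.17, 9.50 and 9.95 CPM in libraries labelled Tau, against 25.3, 21.0 and 13.5 CPM in control libraries. The 3 libraries labelled Tau lay within 1 CPM of each other while the control libraries spread widely. The means were 9.54 ± 0.388 and 19.9 ± 6.00 CPM (SD, n = 3 each), a log2 fold change of -1.06 (SE 0.23, interval -1.56 to -0.57, adjusted p = 0.0194, edgeR). NCOA2 lies on chromosome 8 at 70109782 to 70403808 on the minus strand, and its longest transcript holds 43.4% G or C. On the other strand it overlaps the pseudogene BTF3P12 (at most 4 counts) and RNY3P14 (0 counts).

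HDAC5, a class IIa deacetylase that shuttles between nucleus and cytoplasm and represses MEF2 targets, was higher. Its level was 36.6, 33.0 and 31.2 CPM in libraries labelled Tau, against 18.6, 18 and 22.8 CPM in control libraries. Each group was tight and the lowest Tau library was well above the highest control library. The means were 33.6 ± 2.77 and 19.8 ± 2.60 CPM (SD, n = 3 each), a log2 fold change of 0.76 (SE 0.17, interval 0.39 to 1.13, adjusted p = 0.0217, edgeR). HDAC5 lies on chromosome 17 at 44076746 to 44123702 on the minus strand and overlaps G6PC3 on the other strand, which had up to 2211 counts and a log2 fold change of 0.06. The strand setting of the count is not stated, so reads of the overlapping stretch may be shared. HDAC5 has the most GC-rich transcript of the 5 called genes (61.21%), and with the GC trend of each library removed its log2 fold change was 0.45, under the fold limit (adjusted p = 0.0791, edgeR). Scaled to total counts, mitochondrial reads included, where 20.5% of all tested genes were called, it was also 0.45 (adjusted p = 0.215, edgeR).

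SIRT1, the nuclear NAD-dependent deacetylase that acts on histones and on transcription factors such as p53 and FOXO proteins, was lower. It had 12.1, 16.0 and 15.4 CPM in libraries labelled Tau, against 31.6, 31.3 and 22.3 CPM in control libraries. All libraries labelled Tau were below all control libraries, of which replicate 3 was the lowest. The means were 14.5 ± 2.08 and 28.4 ± 5.27 CPM (SD, n = 3 each), a log2 fold change of -0.97 (SE 0.20, interval -1.40 to -0.54, adjusted p = 0.0166, edgeR), or a ratio of 0.510. SIRT1 lies on chromosome 10 at 67884656 to 67918390 on the plus strand, with 40.64% G or C in its longest transcript, and no annotated gene overlaps it. With the GC trend removed it was still called (log2 fold change -0.73, adjusted p = 0.0325, edgeR).

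BRPF3, a bromodomain scaffold that joins KAT7 to its histone substrate, was lower. Its level was 6.01, 5.42 and 5.54 CPM in libraries labelled Tau, against 8.45, 10.7 and 7.70 CPM in control libraries. The libraries labelled Tau were again close to each other and all below control. The means were 5.66 ± 0.312 and 8.95 ± 1.57 CPM (SD, n = 3 each), a log2 fold change of -0.66 (SE 0.20, interval -1.10 to -0.22, adjusted p = 0.0593, edgeR). BRPF3 lies on chromosome 6 at 36196744 to 36232790 on the plus strand and overlaps the antisense gene BRPF3-AS1, which had at most 33 counts and a log2 fold change of 1.45. Its call was lost in 5 of the 6 fits that leave out 1 library, at adjusted p = 0.102, 0.183 and 0.192 without Tau replicates 1, 2 and 3 and 0.157 and 0.168 without control replicates 1 and 2 (edgeR).

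All 5 calls needed control replicate 1. Without it edgeR called none of the 40 genes, with an unadjusted p under 0.05 in 5 of them, and 1.47% of all tested genes were called. The adjusted p values were then 0.137 for KAT2A, 0.123 for NCOA2, 0.127 for HDAC5, 0.111 for SIRT1 and 0.157 for BRPF3, and the log2 fold changes were 1.15, -0.86, 0.72, -0.89 and -0.71. Control replicate 3 was the control library nearest to the libraries labelled Tau in 5 of 5 called genes and in 2451 of the 2985 called genes overall (82.1%). Without that library 4 of the 40 genes were called higher and 7 lower, where 29.9% of all genes were called. The genes that joined were HDAC8 and HDAC10 among the higher ones and KAT2B, HAT1, NCOA3 and HDAC9 among the lower ones.

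The stretch around the transcription start of the called genes is shown because GC content runs through these comparisons. Sequences are from RefSeq (GRCh38.p14), 250 bases before to 50 bases after the start. They were read for 35 of the 40 genes, among them 3 of the 5 called genes. The other genes were left out here, which does not mean that RefSeq lacks a start for them. Capitals mark the motifs searched on both strands, the GC box (GGGCGG), the E-box (CACGTG), the CCAAT box and the TATA box (TATAAA). KAT2A is read from the minus strand at chr17:42121318-42121617, SIRT1 from the plus strand at chr10:67884406-67884705 and BRPF3 from the plus strand at chr6:36196494-36196793.
KAT2A: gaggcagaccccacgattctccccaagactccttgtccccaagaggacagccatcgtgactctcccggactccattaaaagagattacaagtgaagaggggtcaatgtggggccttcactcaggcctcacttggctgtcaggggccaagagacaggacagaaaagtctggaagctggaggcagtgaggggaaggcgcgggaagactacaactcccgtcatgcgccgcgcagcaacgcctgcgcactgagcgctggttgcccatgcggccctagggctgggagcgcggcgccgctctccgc
SIRT1: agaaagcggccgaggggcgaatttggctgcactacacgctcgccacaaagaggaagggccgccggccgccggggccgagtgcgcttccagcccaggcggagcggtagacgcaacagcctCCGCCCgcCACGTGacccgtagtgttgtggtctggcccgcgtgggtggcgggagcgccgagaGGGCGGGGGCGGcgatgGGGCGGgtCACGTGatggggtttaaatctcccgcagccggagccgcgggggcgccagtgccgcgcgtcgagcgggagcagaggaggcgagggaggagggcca
BRPF3: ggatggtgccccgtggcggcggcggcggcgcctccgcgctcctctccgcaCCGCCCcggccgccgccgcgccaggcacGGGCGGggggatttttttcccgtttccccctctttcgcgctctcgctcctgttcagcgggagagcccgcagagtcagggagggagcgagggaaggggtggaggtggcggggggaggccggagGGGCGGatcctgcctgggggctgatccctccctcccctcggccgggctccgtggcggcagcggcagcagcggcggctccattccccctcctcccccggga

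The KAT2A stretch had none of these motifs, 62.0% G or C and 18 CpG pairs (0.625 of the number that its base composition gives). SIRT1 had 72.7% G or C and 39 CpG pairs (1.03), with GC boxes at 131, 69, 63 and 52 bases before the start and E-boxes at 123 and 44 bases. BRPF3 had 76.3% G or C and 35 CpG pairs (0.802), with GC boxes at 200, 172 and 50 bases. A GC box was held by 45% of all 35114 promoters, a CCAAT box by 34.6%, an E-box by 7.26% and a TATA box by 11.5%, and their medians were 58.7% G or C and a CpG ratio of 0.579. The 35 genes read here had medians of 69.3% and 0.849. SIRT1 and BRPF3, both lower in libraries labelled Tau, thus have GC-rich starts, while the transcript of SIRT1 is GC-poor. A match is a description of letters and not of a bound factor.

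Per length, KAT2A had the highest mean of the writers in both groups, while the order of the leading erasers and readers differed between the groups. These levels are in RPKM (reads scaled to gene length and library total, as deposited), whose gene length counts all annotated exons, so that genes with long rare isoforms read low. KAT2A averaged 21.7 RPKM over the 6 libraries, ahead of KAT8 (9.42) and KAT5 (6.07), and EP300 had the lowest mean of the writers at 0.844, although in libraries labelled Tau NCOA3 was lower (0.653 against 0.743). Among erasers the means over the 6 libraries were highest for HDAC2 (8.33), SIRT6 (7.63) and HDAC1 (7.54) and lowest for HDAC4 (0.715). HDAC1 (7.30), SIRT6 (6.95), HDAC6 (6.48) and HDAC2 (6.41) led in libraries labelled Tau, and HDAC2 (10.2), SIRT6 (8.31) and HDAC1 (7.78) in control libraries. The lowest eraser was HDAC9 (0.522) in libraries labelled Tau and SIRT4 (0.799) in control libraries. BRD2 and BRD3, both at 8.83 RPKM over the 6 libraries, and BRD7 (5.77) led the readers, and BRPF3 was lowest at 1.17. BRD2 and BRD3 had 7.65 and 7.16 RPKM in libraries labelled Tau, against 10 and 10.5 RPKM in control libraries. The library totals behind RPKM include mitochondrial reads, whose share differed between libraries, so RPKM serve here to order genes within a group. After TMM the means were 62.5 against 64.7 CPM for BRD2 and 55.4 against 64.1 CPM for BRD3.

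**Figure D2:**
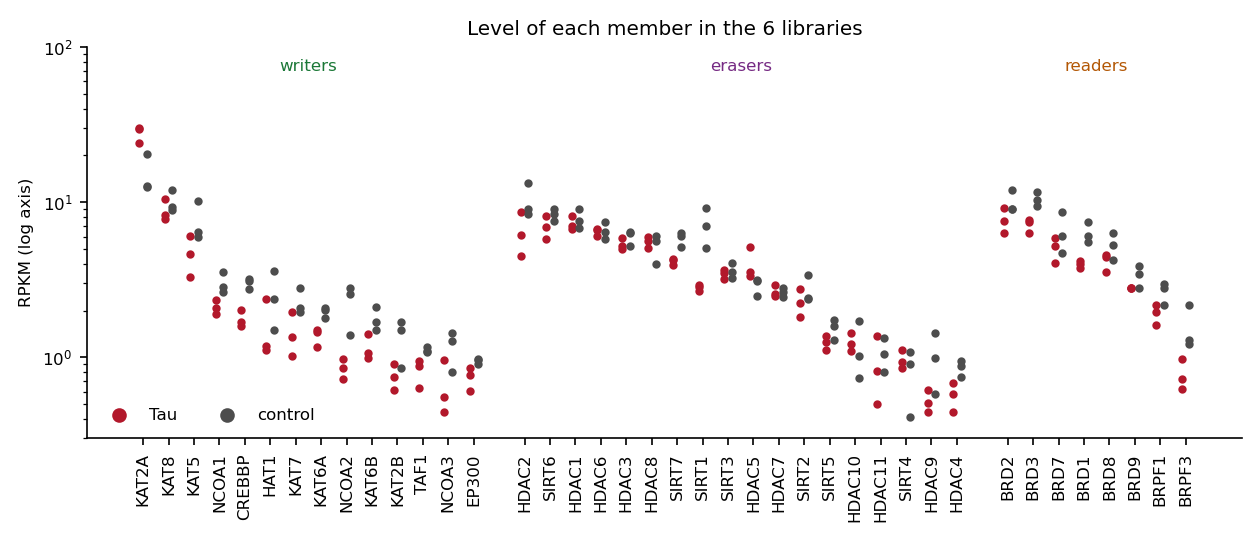
RPKM of each of the 40 genes in the 6 libraries on a log axis, ordered by mean level within writers, erasers and readers, with libraries labelled Tau (red) left of control libraries (grey). KAT2A lies at 24.2 to 30.1 RPKM in libraries labelled Tau and 12.6 to 20.4 RPKM in control libraries, the highest gene everywhere but in control replicate 2, where HDAC2 had 13.3 RPKM.

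Summed over the 14 writers, KAT2A took 42.9, 57.5 and 53.9% of the RPKM in libraries labelled Tau, against 25.7, 21.1 and 38.2% in control libraries. The ratio of summed writers to summed erasers was 0.798, 0.920 and 0.911 in libraries labelled Tau, against 0.726, 0.722 and 0.707 in control libraries. Without KAT2A this ratio was 0.456, 0.391 and 0.420 in libraries labelled Tau, against 0.539, 0.570 and 0.436 in control libraries. The groups did not overlap with KAT2A, the Tau side being higher, and they overlapped without it. These ratios are a description of RPKM sums and were not tested.

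Of the 14 writers, 12 had a fitted log2 fold change below 0 and 2 above, with a median of -0.31, against -0.03 over all tested genes, of which 47.7% were above 0. The writer median was -0.15 with the GC trend removed and -0.63 with total counts. KAT8 (MOF), which acetylates histone H4, was the other writer above 0. It had 42.6, 43.7 and 41.4 CPM in libraries labelled Tau, against 37.9, 38.8 and 38.6 CPM in control libraries. The groups did not overlap, yet the difference was small (log2 fold change 0.15, SE 0.15, adjusted p = 0.548, edgeR). KAT5 (TIP60), the catalytic subunit of the NuA4 complex with roles in DNA repair, had 21.1, 16.0 and 20.1 CPM in libraries labelled Tau, against 23.5, 28.3 and 21.4 CPM in control libraries. It was not called (log2 fold change -0.36, SE 0.18, adjusted p = 0.219, edgeR), and was called lower with the GC trend removed (-0.60, adjusted p = 0.0876).

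EP300 and CREBBP are paralogous coactivators that acetylate histones at enhancers and bind many transcription factors. EP300 had 10, 9.92 and 11.1 CPM in libraries labelled Tau, against 11.9, 9.02 and 10.8 CPM in control libraries. The libraries labelled Tau lay within the control range (log2 fold change -0.03, interval -0.43 to 0.38, adjusted p = 0.94, edgeR). CREBBP had 23.0, 34.1 and 36.6 CPM in libraries labelled Tau, against 48.6, 36.2 and 40.9 CPM in control libraries. Its highest Tau library was just above its lowest control library, and it was not called (-0.42, interval -0.87 to 0.02, adjusted p = 0.19, edgeR). It was called lower with total counts (-0.77, adjusted p = 0.0524, edgeR) and where the mitochondrial share was a covariate (-0.79, adjusted p = 0.0624, edgeR).

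The other writers were not called. KAT2B (PCAF), the paralogue of KAT2A, had a log2 fold change of -0.49 (adjusted p = 0.215, edgeR), and NCOA3, a relative of NCOA2, of -0.54 with an interval of -1.07 to -0.01 (adjusted p = 0.167). KAT6A and KAT6B, which acetylate histone H3 in complexes with BRPF scaffolds, had -0.20 and -0.27, and KAT7 (HBO1), which acts at replication origins, had -0.34. HAT1, which acetylates newly made histone H4, had -0.35, TAF1, the largest subunit of TFIID, had -0.12 and NCOA1 had -0.17.

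Of the 18 erasers, 13 had a log2 fold change above 0 and 5 below, with a median of 0.12. This direction depends on the scaling, since with total counts 5 were above 0 and 13 below, with a median of -0.21, while total counts shift the median of all genes by -0.34. Where the mitochondrial share was a covariate, which leaves the median of all genes in place, 6 erasers were above 0 and 12 below (median -0.07), and with the GC trend removed 10 were above 0 and 8 below (median 0.08). HDAC2, a class I deacetylase of the NuRD, Sin3 and CoREST complexes that is known to restrain synaptic genes, had 125, 90.7 and 110 CPM in libraries labelled Tau, against 138, 154 and 124 CPM in control libraries. Tau replicate 1 lay just above control replicate 3, and the gene was not called (log2 fold change -0.35, SE 0.18, adjusted p = 0.227, edgeR). Its log2 fold change was -0.02 with the GC trend removed (adjusted p = 0.968, edgeR). HDAC1, its partner in the same complexes, had 30.3, 34.7 and 32.5 CPM in libraries labelled Tau, against 26.6, 22.3 and 34.2 CPM in control libraries. The groups overlapped (0.23, interval -0.17 to 0.64, adjusted p = 0.432, edgeR).

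SIRT6, a nuclear sirtuin tied to telomeres and DNA repair, had 21.2, 21.0 and 22.6 CPM in libraries labelled Tau, against 20.6, 18.8 and 22.4 CPM in control libraries. Its libraries overlapped (log2 fold change 0.07, SE 0.16, adjusted p = 0.809, edgeR). HDAC4, the class IIa relative of HDAC5, had 8.57, 7.74 and 9.06 CPM in libraries labelled Tau, against 11.5, 9.54 and 9.61 CPM in control libraries. It did not overlap between groups and was not called (-0.27, SE 0.18, adjusted p = 0.348, edgeR).

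Among the remaining class I and IIa deacetylases, HDAC8 had a log2 fold change of 0.43 (interval 0.02 to 0.84, adjusted p = 0.158, edgeR) and HDAC9 of -0.57 (interval -1.10 to -0.05, adjusted p = 0.139). HDAC3, the catalytic subunit of the NCoR complex, had 0.17, and HDAC7 had 0.34. HDAC6, a cytoplasmic tubulin deacetylase, had 0.33, HDAC10, which acts on polyamines, 0.41, and HDAC11 0.05. SIRT2, which deacetylates tubulin in the cytoplasm, had 0.06. The mitochondrial sirtuins SIRT3, SIRT4 and SIRT5 had 0.25, 0.66 and 0.03, of which SIRT4 stayed at 0.495 to 1.77 CPM in all libraries (adjusted p = 0.245, edgeR). SIRT7, the nucleolar sirtuin, had -0.16. None of these was called.

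Of the readers BRPF3 alone was called. The BET protein BRD2, which binds acetylated histones at active genes, had 62.7, 60.2 and 64.5 CPM in libraries labelled Tau, against 64.6, 65.6 and 64.0 CPM in control libraries. The groups overlapped and the interval was narrow (log2 fold change -0.05, interval -0.39 to 0.29, adjusted p = 0.852, edgeR). BRD3, its BET relative, had 49.5, 56.9 and 59.6 CPM in libraries labelled Tau, against 63.9, 59.5 and 69.0 CPM in control libraries. The groups overlapped only slightly (-0.21, interval -0.57 to 0.14, adjusted p = 0.413, edgeR). BRD7, a subunit of the PBAF remodeller, had 46.8, 45.1 and 51.9 CPM in libraries labelled Tau, against 39.4, 54.9 and 49.3 CPM in control libraries. Its means were equal at 47.9 ± 3.53 and 47.9 ± 7.87 CPM (SD, n = 3 each; log2 fold change 0.00, adjusted p = 0.997, edgeR).

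BRD9, a subunit of the noncanonical BAF remodeller, had a log2 fold change of 0.07 and BRD8, a subunit of NuA4, of 0.04. BRD1 and BRPF1, scaffolds of KAT6 and KAT7 complexes like BRPF3, had -0.32 and -0.14. Over the 8 readers 3 were above 0 and 5 below, with a median of -0.09 (-0.20 with the GC trend removed and -0.43 with total counts), and the 7 other than BRPF3 were not called.

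**Figure D3:**
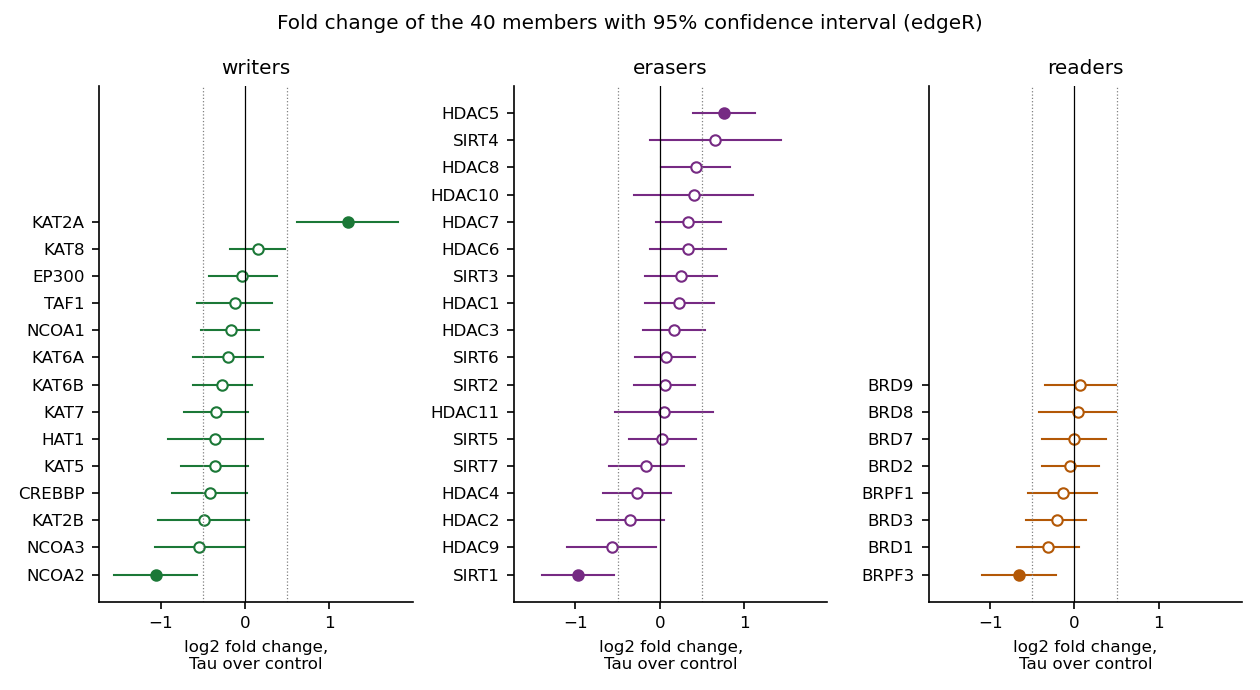
Fitted log2 fold change, Tau over control, of the 40 genes with 95% confidence intervals (edgeR, 3 libraries per group), for writers, erasers and readers. Filled points were called, dotted lines mark the fold limit of 0.5 either way, and KAT2A (1.22) and NCOA2 (-1.06) are the extremes.

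Over the 40 genes, 8 had an unadjusted p under 0.05 in edgeR, the 5 called genes with NCOA3, HDAC8 and HDAC9, where 29.1% of all tested genes did. The groups did not overlap in 5 genes that were higher and 9 that were lower, where 16.1% and 16.8% of all tested genes did so. For 30 of the 35 uncalled genes (85.7%) the 95% interval stayed within a 2-fold change either way, against 9850 of 13793 uncalled genes overall (71.4%). The other 5 were KAT2B, NCOA3, HDAC9, HDAC10 and SIRT4. The 40 genes had a median level of 21.3 CPM, against 9.65 CPM over all tested genes, and median absolute log2 fold changes of 0.272, against 0.334.

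Close relatives were compared within each library as ratios of their RPKM, which a scaling of the library cannot change. The ratios still carry the GC trend of each library. GC content differs between KAT2A and KAT2B (59.94% against 41.16%) and between HDAC5 and HDAC4 (61.21% against 55.1%). It is alike in NCOA2 and NCOA1 (43.4% and 43.98%). The part of GC content in the ratios was not tested. Of 9 pairs of paralogues 4 did not overlap between the groups, each at an exact two-sided permutation p = 0.1, the smallest possible, and 0.225 adjusted over the 9 pairs. Among all tested single genes 16.1% did not overlap with Tau higher and 16.8% with Tau lower, the share among other gene pairs was not computed, and the ratios are given as a description. KAT2A exceeded KAT2B by 26.9, 40.1 and 48.9 times in libraries labelled Tau, against 8.47, 7.50 and 23.9 times in control libraries. HDAC5 exceeded HDAC4 by 7.49, 7.48 and 6.03 times in libraries labelled Tau, against 2.84, 3.31 and 4.16 times in control libraries. Both ratios hold a gene already called higher in these same libraries, so they give no separate support for those calls.

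The ratio of NCOA2 to NCOA1 was 0.417, 0.382 and 0.409 in libraries labelled Tau, against 0.974, 0.784 and 0.493 in control libraries. It holds NCOA2, already called lower in these same libraries, so it gives no separate support for that call either. The ratio of EP300 to CREBBP was 0.540, 0.360 and 0.377 in libraries labelled Tau, against 0.303, 0.309 and 0.327 in control libraries. EP300 thus had a larger ratio to CREBBP in each library labelled Tau although neither was called. The pairs HDAC1 and HDAC2 (difference in log2 ratio 0.61, exact permutation p = 0.2), HDAC7 and HDAC9 (0.87, p = 0.2), BRPF3 and BRPF1 (-0.52, p = 0.2), BRD2 and BRD3 (0.16, p = 0.3) and KAT6A and KAT6B (0.09, p = 0.8) overlapped.

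Gene levels followed GC content differently in each library. Relative to the mean library, the Spearman correlation of levels with GC content was 0.43, 0.26 and 0.32 in libraries labelled Tau, against -0.52, -0.37 and 0.12 in control libraries. Over the 40 genes the log2 fold change and GC content had a Spearman correlation of 0.48, beside 0.47 over 16663 tested genes, and 40 genes of the same 6 libraries are not independent points. Of the 11 genes under 45% GC, 8 had a log2 fold change below 0 (median -0.35, against -0.27 for all genes in that range). Of the 13 over 55% GC, 8 were above 0 (median 0.06, against 0.28). The share of this trend in any single fold change was not tested beyond the fit that removes it.

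**Figure D4:**
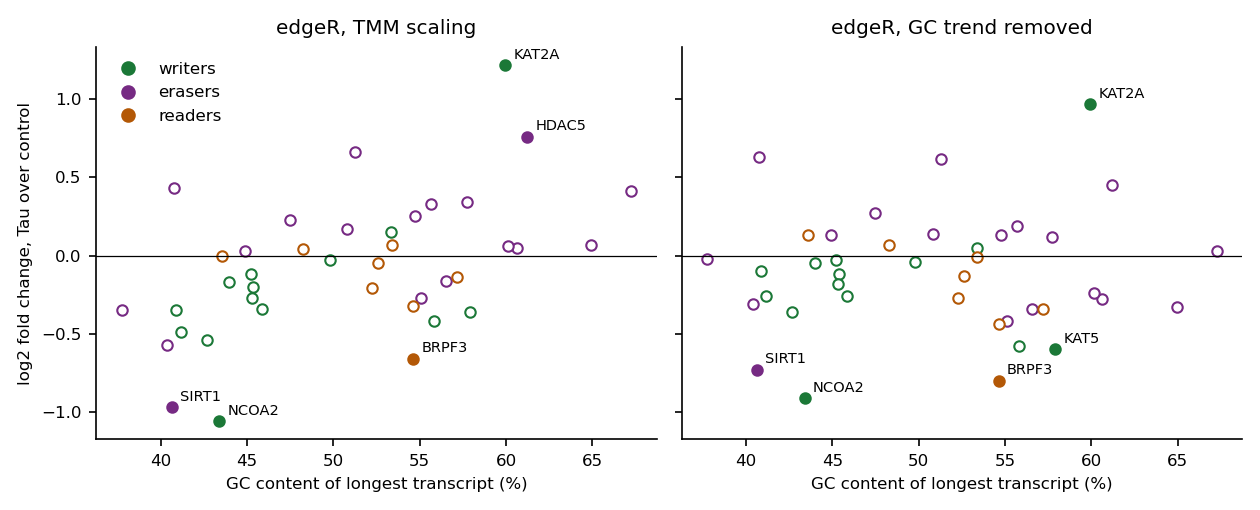
Log2 fold change, Tau over control, against the GC content of the longest transcript for the 40 genes, as fitted by edgeR with TMM scaling (left) and with the GC trend of each library removed (right). Filled, named points were called, and on the right HDAC5 (0.45) falls under the fold limit and KAT5 (-0.60) joins the lower genes.

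With the GC trend removed, edgeR called KAT2A higher (log2 fold change 0.97, adjusted p = 0.0572) and NCOA2 (-0.91, adjusted p = 0.0338), SIRT1, BRPF3 (-0.80, adjusted p = 0.0456) and KAT5 lower, while 10.7% of all tested genes were called. Over all 21 alternatives, NCOA2 and SIRT1 kept their calls in 20 each, KAT2A in 18, HDAC5 in 16 and BRPF3 in 12. The direction of these 5 genes was the same in all 21, with log2 fold changes from 0.56 to 1.55 for KAT2A, -1.41 to -0.86 for NCOA2, 0.43 to 0.87 for HDAC5, -1.34 to -0.73 for SIRT1 and -1.01 to -0.38 for BRPF3.

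**Figure D5:**
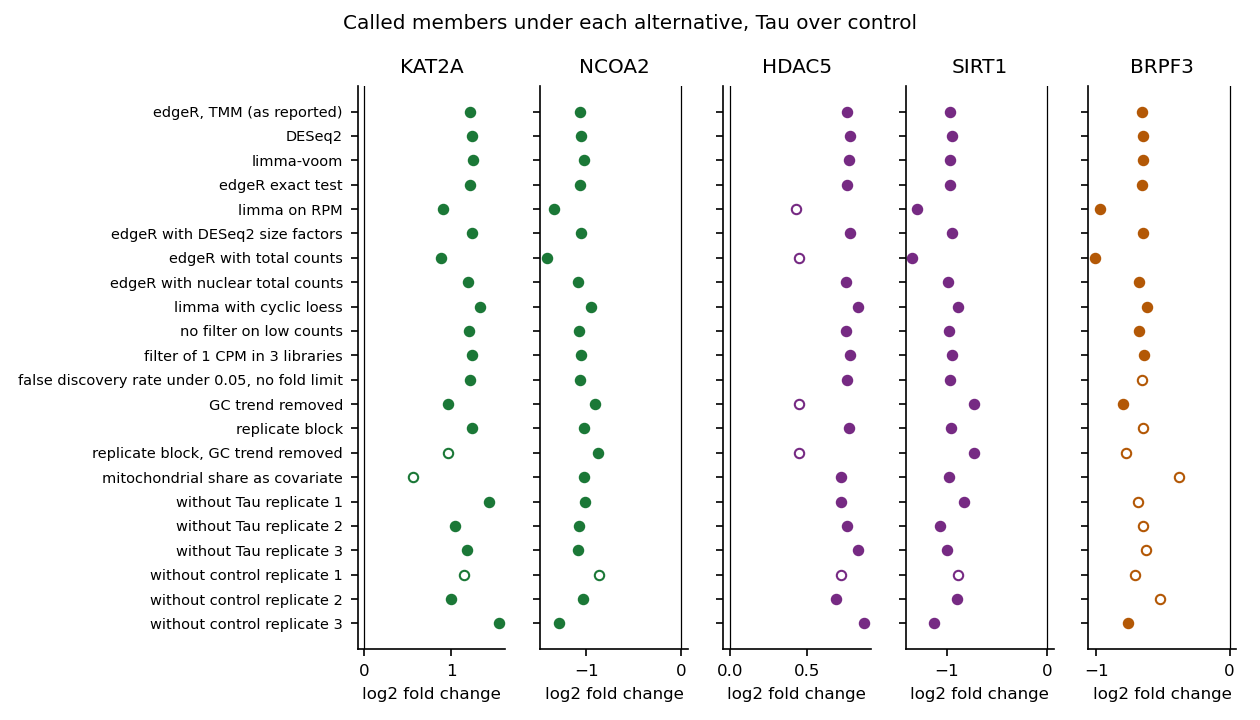
Log2 fold change, Tau over control, of the 5 called genes in the reported fit and in each of 21 alternatives (rows). Filled points were called, and all 5 points without control replicate 1 are open.

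The writers act in complexes, and 53 listed subunits of acetyltransferase complexes were read beside them. Of the 51 that were tested, edgeR called none higher (0 at an unadjusted p under 0.05, and 0 called by DESeq2) and 7 lower (13.7%, where 17.8% of all tested genes were called), with a median log2 fold change of -0.16. With total counts 18 were called lower. TADA1, an adaptor of the SAGA complex in which KAT2A works, had 12.2, 14.2 and 15 CPM in libraries labelled Tau, against 32.9, 34.4 and 22.7 CPM in control libraries (-1.12, SE 0.20, adjusted p = 0.0101, edgeR). It was called in all 21 alternatives. TAF9, shared by SAGA and TFIID, had 27.3, 31.1 and 31.9 CPM in libraries labelled Tau, against 53.0, 57.8 and 42.8 CPM in control libraries (-0.77, SE 0.17, adjusted p = 0.0232, edgeR). The direction of TADA1 and TAF9 was thus the opposite of that of KAT2A. Of the 51 tested subunits 36 had a log2 fold change below 0 and 15 above, such as TADA3 (0.24) and TAF12 (0.20), which were not called. DR1 of ATAC, ING3, YEATS4 and EPC2 of NuA4, and TADA2A of ATAC were the other genes called lower. With the GC trend removed 3 of the 7 were called, TADA1, TAF9 and DR1, and without control replicate 1 only TADA1 (adjusted p = 0.091, edgeR).

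Of 39 listed subunits of deacetylase complexes 38 were tested, 2 were called higher and 4 lower (15.8%, against 17.8% of all tested genes), with a median of -0.08. With total counts edgeR called 0 higher (0 at an unadjusted p under 0.05) and 8 lower. ZMYM3, a zinc finger protein of CoREST complexes, had 38.8, 46.9 and 38.5 CPM in libraries labelled Tau, against 24.9, 18.4 and 30.7 CPM in control libraries (log2 fold change 0.75, SE 0.20, adjusted p = 0.0396, edgeR). HMG20B, from the same complexes, had 76.2, 59.1 and 59.4 CPM in libraries labelled Tau, against 38.5, 41.8 and 49.7 CPM in control libraries (0.58, SE 0.18, adjusted p = 0.0606, edgeR). RCOR3, a CoREST scaffold, went the other way, at 22.5, 27.5 and 26.2 CPM in libraries labelled Tau, against 62.5, 48.8 and 33.3 CPM in control libraries (-0.93, SE 0.22, adjusted p = 0.0271, edgeR). Members of the CoREST complexes thus stood on both sides. BRMS1L of the Sin3 complex had 5.34, 3.24 and 3.82 CPM in libraries labelled Tau, against 9.81, 10.7 and 4.8 CPM in control libraries, where the groups overlapped (-1.03, SE 0.30, adjusted p = 0.0532, edgeR). RBBP4, a histone chaperone of NuRD and Sin3, and the scaffold RCOR1 were the other lower genes. With the GC trend removed 1 of these subunits was called higher, ZMYM3 (0.62, adjusted p = 0.0818, edgeR), and 1 lower, RCOR3 (-0.61, adjusted p = 0.0709). HMG20B then had a log2 fold change of 0.17 (adjusted p = 0.515, edgeR), and it kept its call in 10 of the 21 alternatives. Without control replicate 1 edgeR called none of these subunits (6 at an unadjusted p under 0.05).

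Of 33 other bromodomain and acetyl-lysine readers 30 were tested, 1 was called higher and 3 lower (13.3%, against 17.8% of all tested genes), with a median of -0.09. With total counts edgeR called 0 higher (0 at an unadjusted p under 0.05) and 6 lower, and with limma-voom, DESeq2 size factors or cyclic loess 1 was lower. SP110, a bromodomain protein of nuclear bodies, had 2.86, 1.72 and 2.13 CPM in libraries labelled Tau, against 1.33, 0.944 and 1.09 CPM in control libraries (log2 fold change 1.0, SE 0.30, adjusted p = 0.0532, edgeR). ZMYND11, a reader of the histone variant H3.3 in transcribed genes, had 29.7, 30.2 and 30.0 CPM in libraries labelled Tau, against 52.3, 57.2 and 37.8 CPM in control libraries (-0.71, SE 0.18, adjusted p = 0.0341, edgeR). ATAD2B had 10.4, 12 and 11.7 CPM in libraries labelled Tau, against 18.9, 15.4 and 14 CPM in control libraries (-0.51, SE 0.18, adjusted p = 0.0971, edgeR), and TRIM33 was the other lower gene. Of the 21 alternatives, ATAD2B kept its call in 5 and TRIM33 in 9, and DESeq2 did not call ATAD2B. With the GC trend removed, SP110 alone was called among these readers, and without control replicate 1 edgeR called none (2 at an unadjusted p under 0.05).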

How the data were processed

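The 6 libraries are 3 labelled Tau and 3 control. Bases were called by the authors with bcl2fastq 1.8.4, TopHat2 2.1.0 aligned the reads to GRCh38, and featureCounts 1.5.0 gave the deposited counts per gene. The deposited RPM values are these counts scaled to a common total of each library, and the deposited RPKM values are the RPM divided by a gene length in kilobases, both made by the authors.

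Counts were tested in R 4.3.3 with edgeR 4.0.16 (quasi-likelihood, TMM scaling, low-count filter, group only). Of 58395 genes 16778 were tested, with Benjamini-Hochberg adjustment over all of them. A call needed an adjusted p under 0.1 and a log2 fold change beyond 0.5 either way. Standard errors come from the fold change and the F statistic. GC content is that of the longest GENCODE 44 transcript, and its trend was fitted by lowess (span 0.3) and entered as an offset. Alternatives used limma 3.58.1 (on log2 of RPM plus 0.1, with voom or with cyclic loess), DESeq2 1.42.0, other scalings, filters and covariates, and all sets of 5 libraries. The tests were tried on simulated data. Values per library were compared by exact permutation.

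The genes, lists and tests were chosen with earlier results of these data known. Full values are given for called genes, the 3 highest and the lowest of each class by RPKM, HDAC1, EP300, CREBBP and SIRT1, and for up to 2 called genes in each direction of each companion list. For the cell type markers these genes have fold changes only, and some that the rule picks are left out.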

Additional observations from a re-analysis of the deposited data

How the results depend on the processing

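The 5 called genes kept their call in 86 pairs of a gene and an alternative and lost it in 19, and the 35 uncalled genes became called in 17 and stayed uncalled in 718, with no call of either direction reversed. Over all genes, where 2985 were called, the count was 1615 at a false discovery rate under 0.05 without a fold limit, 1789 with the GC trend removed, 1322 with the mitochondrial share as a covariate, and 250 to 5144 when 1 library was left out, the extremes being without control replicate 1 (3506 at an unadjusted p under 0.05) and without control replicate 3. Of the 40 genes, where 2 were called higher and 3 lower, limma on RPM gave 1 and 6, total counts 1 and 7, the GC trend removed 1 higher, the mitochondrial share as a covariate 1 higher (HDAC5), leaving out 1 library 0 to 4 higher and 0 to 7 lower, and the sign alone 18 and 22. The mitochondrial share as a covariate also called CREBBP and SIRT7 lower. Deviations from the group mean correlated at -0.15, -0.46 and 0.17 between libraries of the same replicate number. With 3 libraries per group these deviations are tied to each other, so they cannot decide whether replicate numbers pair the libraries. With the replicate block edgeR called 2211 genes, with KAT2A and HDAC5 higher and NCOA2 and SIRT1 lower among the 40, and with the replicate block and the GC trend removed 612 genes, with 0 of the 40 higher (9 had an unadjusted p under 0.05 in either direction) and NCOA2 and SIRT1 lower. Of all calls 52.7% were higher with TMM, 16.2% with total counts, 17.4% with limma on RPM, 59.1% with cyclic loess and 61.5% with the GC trend removed, and total counts and RPM shift the median of all genes by -0.34 and -0.33. DESeq2 called 3221 genes and the same 5 of the 40. The causes of these shifts were not tested. With 3 libraries per group, 5 of the 35 uncalled genes have intervals that reach beyond a 2-fold change.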

Other observations

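Writers use acetyl-CoA and sirtuins use NAD, and 16 genes that supply either were listed. Of the 13 tested, 3 were called higher in libraries labelled Tau and 3 lower (46.2%, against 17.8% of all tested genes), with a median log2 fold change of 0.14. The list was chosen with earlier results of these data known, so the larger share is a description only. ACSS2, which makes acetyl-CoA from acetate in cytoplasm and nucleus, had 26.8, 29.2 and 24.8 CPM in libraries labelled Tau, against 13.0, 12.2 and 17.6 CPM in control libraries (0.92, SE 0.19, adjusted p = 0.0171, edgeR). CRAT, which moves acetyl groups between carnitine and coenzyme A, had 18.9, 15.9 and 17.1 CPM in libraries labelled Tau, against 10.5, 11.1 and 13.8 CPM in control libraries (0.55, SE 0.18, adjusted p = 0.0736, edgeR), and the citrate carrier SLC25A1 was also higher (0.57, adjusted p = 0.0933). NAMPT, the rate-limiting enzyme of NAD salvage, had 14.5, 13.4 and 15.4 CPM in libraries labelled Tau, against 23.2, 27.0 and 19.8 CPM in control libraries (-0.70, SE 0.18, adjusted p = 0.0339, edgeR). DLAT, a subunit of pyruvate dehydrogenase, had 14.4, 15.3 and 15.9 CPM in libraries labelled Tau, against 23.9, 32.5 and 18.3 CPM in control libraries (-0.71, SE 0.21, adjusted p = 0.0534, edgeR), and PDHX of the same complex was also lower. ACLY, which makes acetyl-CoA from citrate, had 134, 146 and 141 CPM in libraries labelled Tau, against 118, 128 and 137 CPM in control libraries, and was not called (0.14, adjusted p = 0.602, edgeR); it was named after its values were seen. With total counts edgeR called 0 of the 13 higher (1 at an unadjusted p under 0.05) and 4 lower, and limma on RPM also called 0 higher and 4 lower. With the GC trend removed only ACSS2 of these 13 was called (0.82, adjusted p = 0.0275, edgeR). Without control replicate 1 edgeR called none of them, with 4 at an unadjusted p under 0.05 (adjusted p = 0.118 for ACSS2 and 0.135 for NAMPT, edgeR).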
